A study of Caenorhabditis elegans with 9 samples.

Results

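Dissected oocytes of Caenorhabditis elegans were set beside extracts of whole animals, with 3 libraries each, 6 of the 9 libraries in the series. The libraries were chosen by their labels alone, and no measured value entered the choice. The other 3 libraries, of sorted oocyte P-bodies, are not compared here, but shared the gene filter, the scaling and the estimate of the spread between replicates. With the 6 libraries alone 8336 genes were tested, of which 940 were called lower in oocytes and 47 higher. Every animal was female and was sampled on day 3, with both L4 and oocyte arrest listed as the stage. The strain is labelled fog2; car1:GFP, pgl1:RFP, so both groups carried the same fog-2 background and the same tagged proteins, and no strain without them was compared. The oocyte libraries are labelled as dissected germline, and the whole-animal extracts, neither dissected nor sorted by FAPS, as somatic and germline. The whole animals thus held oocytes too, and the comparison is one of a part with the whole that contains it. The labels do not say how many animals or oocytes went into a library, or whether replicates came from separate cultures, so the p-values measure the spread between these libraries, which may be technical.

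An oocyte of the nematode grows at the end of a tubular gonad, filled with mRNA that is made in the germline and stored for the embryo. Around it lie the gonadal sheath cells, and beyond them the intestine, which makes the vitellogenins, the yolk proteins that oocytes take up through the receptor RME-2. FOG-2 is needed for hermaphrodites to make sperm, and animals that lack it make oocytes only, which wait in the gonad until a mating supplies sperm. CAR-1 is an RNA-binding protein of P-bodies and PGL-1 a core protein of the germ granules. The X chromosome is repressed in most, though not all, of the germline of this species, and several families of housekeeping genes keep separate copies for germline and soma.

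Each library held between 27946955 and 75081411 counts. Values are CPM, counts divided by library size after scaling by TMM factors, which set the typical gene to no change between libraries. A change is given as the log2 fold change of oocytes over whole animals, with its standard error (SE), and a gene was called where the Benjamini-Hochberg adjusted p of edgeR's quasi-likelihood test was under 0.05. Of 46778 genes in the tables, 10162 had enough counts to be tested. Genes with counts in a single group, which could be the P-body libraries, also passed this filter, so the tested members of a list are not all its members. With the 6 libraries alone some lists had fewer tested members. Nuclear hormone receptors had 64 with a median of -0.23, in place of 106 and -0.60. Cuticle collagens had 38 with a median of -2.34, in place of 66 and -2.73. The replicates of a group correlated at 0.979 or above on log2 CPM. Oocyte library 1 stood apart from the other oocyte libraries in some somatic transcripts, though not in all. Body wall muscle markers made up 0.325% of its protein-coding counts, against 0.163% and 0.156% in oocyte libraries 2 and 3. Cuticle collagens made up 0.235%, against 0.0651% and 0.0416%. Pharynx markers were instead lowest in oocyte library 1, at 0.00254% against 0.00367% and 0.00288%. The gene fog-2 had between 2 and 6 counts in each of the 6 libraries and was not tested, while car-1 and pgl-1, the tagged genes, were well covered and are described among the germline genes.

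Oocytes differed from whole animals almost entirely by what they lacked. Of the tested genes 1272 were called lower in oocytes (12.5% of 10162) and 72 higher (0.709%). The fitted losses were deep, with 1007 genes at least 4-fold lower (9.91%) and 269 at least 16-fold lower (2.65%). By contrast, 7 of the 72 higher genes differed by 2-fold or more (0.0689%) and 6 by 4-fold or more (0.059%). For genes with few or no counts in oocytes the fitted size is uncertain. The gene rab-3, without a count in oocytes, was fitted at 404-fold lower. On a floor of 3 counts over the oocyte group it was at least 14.7-fold lower. The median change over all genes was 0.00 on the log2 scale, since the scaling fixes it near there. With library totals in place of the TMM factors the median rose to 0.68, and the split became 1203 genes lower and 5278 higher, of which 1089 lower genes were shared with the scaled result. The count of lower genes was therefore close under both scalings, and that of higher genes was not. Leaving out oocyte library 3 gave 227 higher genes, and leaving out whole-animal library 1, 2 or 3 gave 28, 23 or 32. Groups of libraries that did not overlap were found for 2968 genes (29.2%). In 19 protein-coding genes every whole-animal library had at least 10 counts and every oocyte library none, and the reverse was seen for 0 genes.

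**Figure D1:**
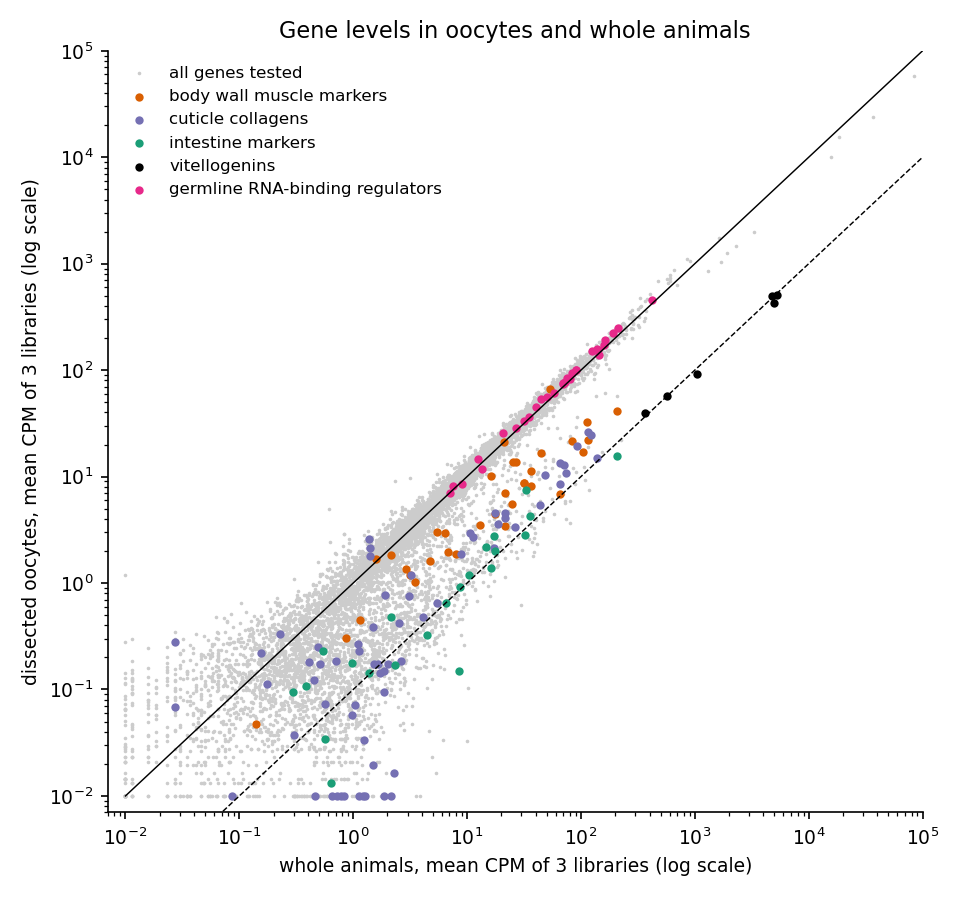
Each point is a tested gene, placed by its mean CPM of 3 libraries in whole animals (horizontal) and in oocytes (vertical), both on log scales, with values under 0.01 drawn at 0.01; the solid line marks equal levels and the dashed line a level 10 times lower in oocytes. Germline regulators lie on the solid line, vitellogenins and most intestine markers near the dashed line, and body wall muscle markers mostly between the lines.

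Products of the intestine were far lower in oocytes. Of the 6 vitellogenin genes 6 were called lower, with log2 changes between -3.55 and -3.20, and of 22 tested intestine markers 15 were lower and 0 higher, with a median of -3.22 against 0.00 over all genes. For vit-5 (X:3403471-3408603, WBcel235) the oocyte libraries held 672, 162 and 441 CPM and the whole-animal libraries 5365, 5051 and 4479 CPM. The 2 groups were far apart, and oocyte library 2 was the lowest of all. The change was -3.55 ± 0.48 (SE, n = 3 each, adjusted p = 0.00193), or 11.7-fold. For vit-6, the one vitellogenin gene on an autosome (IV:8261134-8266462), the values were 755, 221 and 533 CPM against 5679, 5364 and 4623 CPM, a change of -3.38 ± 0.44 (adjusted p = 0.00136). Again oocyte library 1 was the highest and library 2 the lowest of the oocytes, well below each whole-animal library. The other 4 vitellogenin genes, vit-1, vit-2, vit-3 and vit-4, changed by -3.20, -3.24, -3.50 and -3.31. vit-2 overlaps a gene on the other strand, and vit-3, vit-4 and vit-5 are close copies of each other, so these are uncertain as single genes.

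Among intestine markers other than the vitellogenins the median difference was of much the same size. ges-1, a gut esterase (V:1427653-1432137), stood at 0.389, 0.299 and 0.296 CPM in oocytes and at 3.62, 5.28 and 4.42 CPM in whole animals. The oocyte libraries lay close together, and the change was -3.77 ± 0.35 (adjusted p = 3.72e-05). vha-6, the proton pump subunit of the intestine's apical membrane, had 1.86, 0.597 and 1.68 CPM against 14.7, 17.8 and 16.06 CPM (-3.51 ± 0.29, adjusted p = 1.65e-05). The peptide transporter gene pept-1 fell by 3.85 on the log2 scale (adjusted p = 0.000615) and acdh-1, an acyl-CoA dehydrogenase gene, fell by 5.42 (adjusted p = 0.00473). elt-2, which encodes the GATA factor of the intestine, was scarce in every library, at 0.0432, 0 and 0.0592 CPM against 0.904, 0.556 and 0.242 CPM. Its change of -3.77 ± 1.08 had an adjusted p of 0.0354, and the call was lost without any of oocyte libraries 1 to 3 or whole-animal libraries 1 and 2 (adjusted p from 0.0706 to 0.147).

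Several enzyme genes had larger fitted decreases than the vitellogenins, but this difference was not tested. Among the genes listed next the SE ran from 0.28 (ilys-5) to 0.61 (asp-1). By the rule for named genes, the 10 largest decreases among abundant genes were ctsa-1.2 (-4.45), cpr-9 (-3.98), asp-1 (-3.72), fat-2 (-3.70), ilys-5 (-3.69), icl-1 (-3.67), vit-5, asp-6 (-3.53), vit-3 and cpr-6 (-3.38). The genes cpr-9 and cpr-6 encode cathepsin B-like proteases, asp-1 and asp-6 aspartyl proteases, fat-2 a fatty acid desaturase, ilys-5 an invertebrate-type lysozyme and icl-1 a glyoxylate cycle enzyme. ctsa-1.2 overlaps a gene on the other strand and is uncertain. For asp-1 (V:19049461-19050825) the values were 23.4, 4.28 and 18.99 CPM in oocytes and 270, 174 and 178 CPM in whole animals, so the highest oocyte library was far below the lowest whole-animal library. fat-2 (IV:13323850-13326394) read 7.48, 1.84 and 8.43 CPM in oocytes against 77.5, 80.7 and 80.5 CPM, again with oocyte library 2 lowest and no overlap. Of 7 tested lysozyme genes 6 fell, lys-2 among them by 4.11 (adjusted p = 7.17e-05), with a list median of -3.54. Of 43 tested C-type lectins 23 were lower and 0 higher (median -2.89), the most extreme being clec-71 with 0, 0 and 0.0197 CPM against 2.76, 3.95 and 4.01 CPM. Among 66 cytochrome P450 and UDP-glucuronosyltransferase genes, which modify foreign and lipid compounds, 34 were lower and 0 higher (median -2.70), and among 28 transthyretin-related genes 10 were lower and 0 higher (median -2.48). Without whole-animal library 2 the count of transthyretin-related genes fell to 6. Grouped by gene name, all 10 tested aspartyl protease genes of the asp family were lower (median -3.45), as were 10 of 12 saposin-like spp genes (median -3.60) and 13 of 17 carboxylesterase cest genes (median -2.60).

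**Figure D2:**
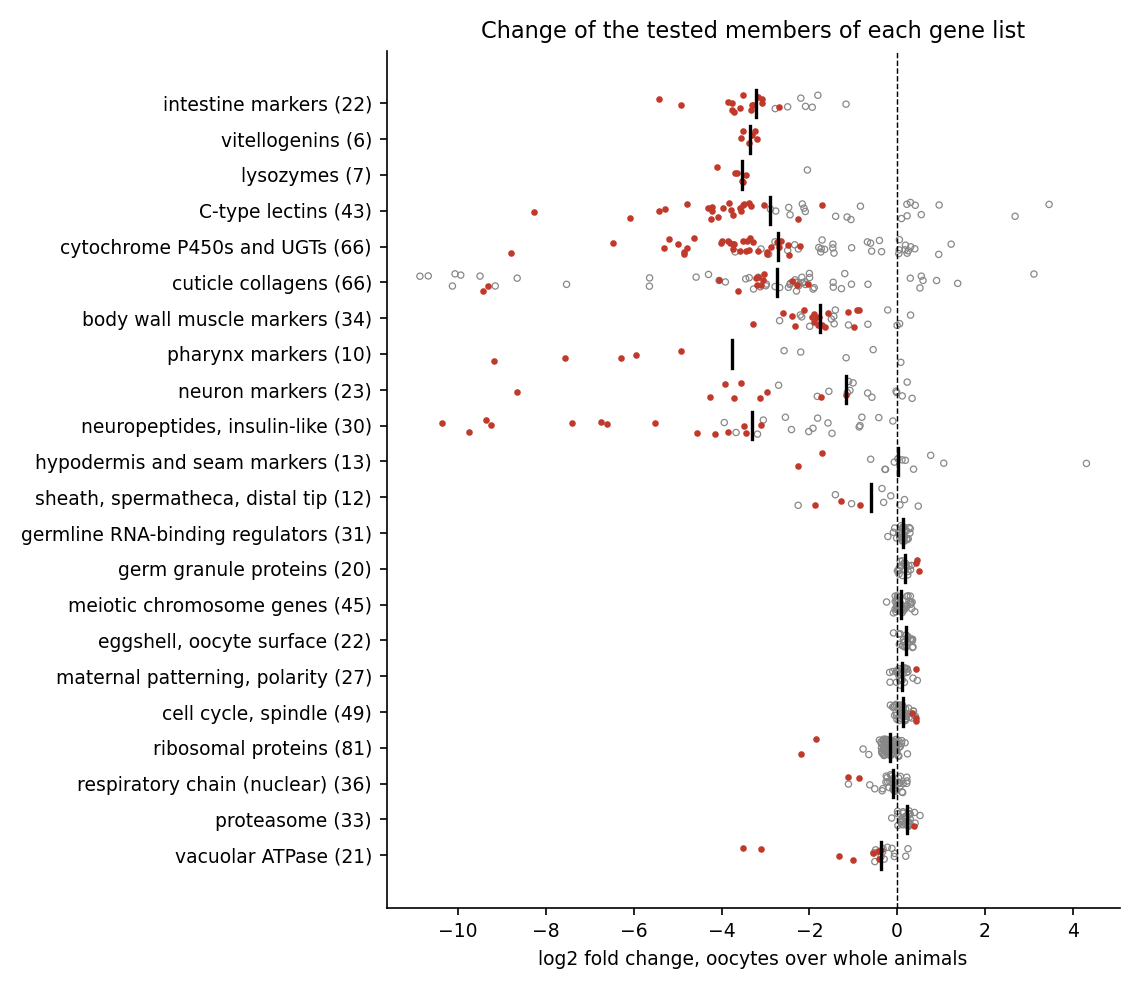
Each circle is 1 tested member of a gene list, placed by its log2 fold change of oocytes over whole animals; filled red circles were called, open grey circles were not, black bars are list medians, the dashed line is the median of all genes and the number of members stands in brackets. Intestine markers, vitellogenins, lysozymes, C-type lectins and cytochrome P450s with UDP-glucuronosyltransferases have medians between -3.75 and -2.70. Cuticle collagens, pharynx markers and neuropeptides lie in the same range. Body wall muscle has -1.75, and the germline lists lie within a narrow band at or just above 0.

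The summed level left in oocytes differed from list to list. Intestine markers together reached 71, 14 and 44.6 CPM in oocyte libraries 1, 2 and 3, and 387 to 478 CPM in whole animals. Vitellogenins summed to 2530, 733 and 1590 CPM, against 15100 to 18500 CPM. As a share of the whole-animal mean, oocytes kept 10.2% ± 6.76 of the intestine markers, 9.57% ± 5.32 of the vitellogenins and 7.97% ± 3.95 of the lysozymes (mean ± SD, n = 3). The transthyretin-related genes kept 38.2%, 14.4% and 23.3% in oocyte libraries 1, 2 and 3, the P450 and UDP-glucuronosyltransferase genes 44.4% ± 4.11 and the C-type lectins 57.7% ± 3.58. The intestine, vitellogenin and lysozyme lists were highest in oocyte library 1 and lowest in library 2, whereas the lectins kept 53.8%, 58.4% and 60.9% in libraries 1, 2 and 3; in the first 3 lists the oocyte libraries lay below the whole-animal libraries. The vitellogenins in oocytes thus had much the same level and the same order over the libraries as the intestine markers, and the part of intestine RNA in the vitellogenin level was not tested. In such mixed samples fewer cells of a type and less RNA per cell cannot be told apart.

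Body wall muscle genes had a smaller median change than intestine genes, and the myosins of pharyngeal muscle were nearly absent from oocytes. Of 34 tested body wall muscle markers 19 were lower and 0 higher, with a median of -1.75. The giant elastic protein gene ttn-1 (V:6120909-6202626) had 12.8, 3.39 and 4.30 CPM in oocytes and 69.8, 71.2 and 54.6 CPM in whole animals, a change of -3.28 ± 0.50 (adjusted p = 0.00638). unc-22, the twitchin gene, which overlaps genes on both strands and is uncertain, fell by 2.61 (adjusted p = 0.00216). unc-54, the main body wall myosin heavy chain, held 78.5, 22.1 and 23.5 CPM against 258, 194 and 171 CPM. Oocyte library 1 stood well above the other oocyte libraries, and no oocyte library reached the whole-animal range. The change of -2.33 ± 0.52 had an adjusted p of 0.0303. myo-3, the second body wall myosin, changed little, with 18.5, 15.1 and 7.42 CPM against 26.2, 25.5 and 24.7 CPM (-0.91 ± 0.26, adjusted p = 0.0483), and pat-3, a beta integrin gene outside the naming rule and picked after its values were seen, had 71.9, 72.97 and 54.7 CPM against 55.0, 55.3 and 50.9 CPM and was not called. The call of unc-54 was lost without oocyte library 2 or 3 or any whole-animal library (adjusted p from 0.0594 to 0.0886), and that of myo-3 without oocyte library 2 or any whole-animal library (adjusted p from 0.0785 to 0.128). The list count rose to 26 without oocyte library 1 and fell to 12 without oocyte library 2 and to 9, 9 and 12 without whole-animal libraries 1, 2 and 3.

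The pharynx is the feeding organ at the head end. myo-2, a myosin heavy chain of pharyngeal muscle (X:12468061-12475348), was at 0, 0 and 0.0987 CPM in oocytes and at 11.3, 9.84 and 8.53 CPM in whole animals, a change of -7.57 ± 0.49 (adjusted p = 3.24e-06). Its partner myosin myo-1 had 0.0432, 0.0498 and 0.217 CPM against 13.6, 10.5 and 6.84 CPM (-6.29 ± 0.60, adjusted p = 9.78e-05). tnc-2, a troponin C gene that overlaps another gene on the opposite strand, had 0 counts in all 3 oocyte libraries and 13, 11 and 21 in whole animals, which makes it at least 20.7-fold higher there, with 3 counts over the oocyte group as the floor. Of 10 tested pharynx markers 5 were lower and 0 higher (median -3.75), and the summed list kept 12.8%, 19.1% and 13.2% of the whole-animal mean, on average 15% against 10.2% for the intestine list. Here oocyte library 2 was the highest, unlike in the intestine lists, and oocyte library 1, the richest in body wall muscle, was the lowest.

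Neuronal genes divided. Of 23 tested markers of neurons 9 were lower and 0 higher (median -1.15), and of 30 tested neuropeptide and insulin-like genes 14 were lower and 0 higher (median -3.31). rab-3, a small GTPase of synaptic vesicles that overlaps a gene on the opposite strand, had 0 counts in each oocyte library and 8, 7 and 17 in whole animals (at least 14.7-fold higher there, on the same floor). The neuropeptide genes flp-1, flp-3 and nlp-6 were also without a count in oocytes. In whole animals flp-1 had 37, 21 and 45 counts, at least 47.4-fold more on this floor, while flp-3 was at least 30.9-fold and nlp-6 at least 23.5-fold higher. The proprotein convertase gene egl-3 read 0.821, 0.0996 and 0.730 CPM against 10.4, 9.28 and 7.01 CPM (-3.93 ± 0.48, adjusted p = 0.000386), and the dense-core vesicle gene ida-1 fell by 4.27 (adjusted p = 0.00053). unc-119, often used as a pan-neuronal marker, was instead at 16.07, 8.21 and 9.30 CPM in oocytes and at 8.90, 8.34 and 9.15 CPM in whole animals, and the groups overlapped (0.34 ± 0.23, adjusted p = 0.41). The summed neuron list kept 73.9% ± 3.01 of the whole-animal mean, while the median member kept 40.2%.

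Cuticle and skin genes moved unevenly. Among 66 tested cuticle collagens 13 were lower (19.7%, against 12.5% over all genes) and 0 higher, with a median of -2.73. But their level differed more between oocyte libraries than for any other list summed here, at 403, 116 and 64.9 CPM against 839 to 1290 CPM in whole animals. Oocyte library 1 thus kept 37.7% of the whole-animal mean and libraries 2 and 3 kept 10.8% and 6.07%. The count of lower collagens rose to 27 without oocyte library 1, and fell to 5 and 8 without oocyte libraries 2 and 3 and to 3 and 5 without whole-animal libraries 1 and 2. Of 13 tested markers of hypodermis and seam 2 were lower (15.4%, close to the 12.5% over all genes), with a median of 0.02. One of them was mup-4, a matrix receptor gene of hypodermal attachments, at 7.91, 2.09 and 4.34 CPM against 22.6, 26.4 and 20.3 CPM (-2.27 ± 0.37, adjusted p = 0.00421). Leaving out oocyte library 3 or any whole-animal library left 1 gene of this list. dpy-7, a larval cuticle collagen, had 0 counts in oocytes and 7, 5 and 1 in whole animals and was not tested.

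**Figure D3:**
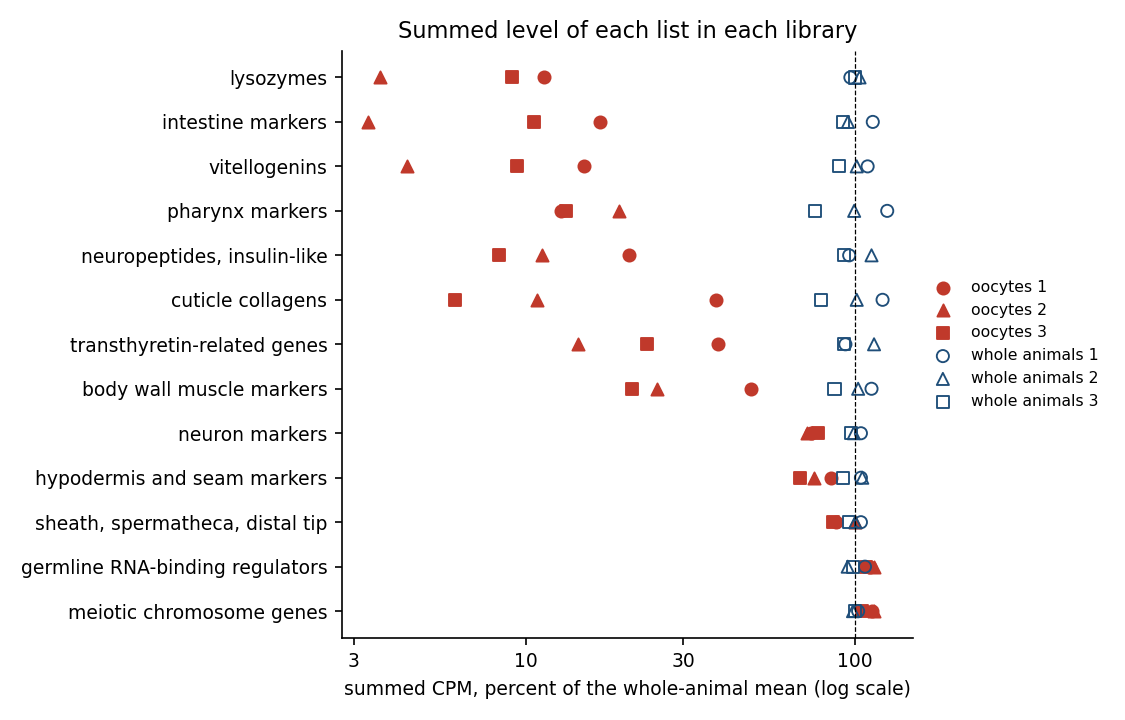
Summed CPM of each gene list in each library, as a percent of the mean of the 3 whole-animal libraries, on a log scale; filled red symbols are oocyte libraries, open blue symbols whole-animal libraries, and the symbol shape gives the library number within its group. Lysozymes, intestine markers and vitellogenins share 1 order of oocyte libraries, 1 then 3 then 2 from the top, collagens and body wall muscle markers are highest in oocyte library 1 and lowest in library 3, and markers of the gonadal soma and of the germline lie near 100%.

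Markers of the somatic cells nearest to the oocytes changed less than those of intestine and body wall muscle, but markers of some other cells did too. Besides hypodermis and seam, uterus and vulva markers had 0 of 5 tested genes called (median -0.03). Coelomocyte and excretory markers had 0 of 8 (median -0.88). In edgeR's test, 2 and 3 genes of these last lists were lower at an unadjusted p under 0.05, and DESeq2 called 2 and 3 lower. Of 12 tested markers of gonadal sheath, spermatheca and distal tip cell 3 were lower (25%, against 12.5% over all genes) and 0 higher, with a median of -0.59, and the median member kept 66.8% of its whole-animal level. Their summed level, most of it from 1 abundant member, the filamin gene fln-1, named after its values were seen, was 287, 326 and 281 CPM in oocytes and 314 to 342 CPM in whole animals, so oocyte library 2 lay within the whole-animal range and the other oocyte libraries just below it. inx-8, a gap junction gene of the sheath, had 11.8, 8.46 and 15.02 CPM against 6.66, 8.89 and 9.84 CPM and was not called (adjusted p = 0.167). The transcription factor genes of the sheath were close to the detection limit, with lim-7 at 0.0864, 0.796 and 0.671 CPM against 0.381, 0.834 and 0.725 CPM and ceh-18 at 0.173, 0.299 and 0.513 CPM against 0.428, 0.612 and 1.04 CPM. Both overlapped between the groups, with adjusted p of 0.837 and 0.441. Lower members included itr-1, the inositol trisphosphate receptor that drives ovulation contractions and also acts in the gut, at 5.57, 4.53 and 7.11 CPM against 16.8, 24.4 and 22.2 CPM (-1.86 ± 0.18, adjusted p = 5.68e-05), and nmy-1, a nonmuscle myosin of the sheath and spermatheca, at 30.8, 32.8 and 23.1 CPM against 54.1, 52.1 and 48.5 CPM (-0.84 ± 0.13, adjusted p = 0.0011). With library totals nmy-1 stayed negative at -0.16 and lost its call, and the list held 1 lower and 2 higher genes. The list count of lower genes was 5 without oocyte library 1. Sperm genes were scarce in both groups. Of 78 annotated ones 6 were tested by edgeR and 0 called, with 2 at an unadjusted p under 0.05, 1 in each direction, while DESeq2, which tested 63 of them, called 12 lower in oocytes. Their share of protein-coding counts lay between 0.00336% and 0.00375% in the oocyte libraries and between 0.00471% and 0.0142% in the whole-animal libraries. msp-3, a major sperm protein gene, had 0 counts in oocytes and 8, 0 and 5 in whole animals.

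Genes of the oocyte itself changed little. Over 10 lists of germline function, 289 tested genes in all, 0 were called lower and 9 higher (3.11%) by edgeR. Over all genes the shares were 12.5% lower and 0.709% higher. Under any alternative scaling, filter, test or left-out library 0 genes of these lists were lower. At an unadjusted p under 0.05 in edgeR's test these lists had 0 lower and 44 higher genes, and DESeq2 called 0 lower and 34 higher. The 31 tested RNA-binding regulators of the germline had 0 called genes (4 at an unadjusted p under 0.05, 3 called by DESeq2). Their median was 0.14, with values from -0.21 to 0.30. The 45 tested genes of meiotic chromosomes likewise had 0 called genes (6 at an unadjusted p under 0.05, 2 called by DESeq2) and a median of 0.08. The 22 genes of eggshell and oocyte surface had 0 (7 at an unadjusted p under 0.05, 8 called by DESeq2) and a median of 0.21. With library totals in place of TMM the medians became 0.82, 0.75 and 0.89, and 31 of 31, 45 of 45 and 22 of 22 genes were called higher, so their level in oocytes is stated relative to the typical gene.

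Single oocyte genes show how close the groups were. The translational repressor gene oma-1 had 58.3, 49.4 and 53.6 CPM in oocytes and 45.2, 43.3 and 44.8 CPM in whole animals. Its oocyte libraries all lay above, yet the change of 0.28 ± 0.10 was not called (adjusted p = 0.0833); without oocyte library 2 it was. Its close relative oma-2, with 99.0, 94.4 and 108 CPM against 98.1, 81.4 and 90.2 CPM, overlapped between groups (0.16 ± 0.10). lin-41, which keeps oocytes from maturing early, and puf-5, a repressor of growing oocytes, changed by 0.17 and 0.22 and were not called. The yolk receptor gene rme-2 was at 409, 407 and 357 CPM against 355, 307 and 329 CPM, just separated, with a change of 0.24 ± 0.11 (adjusted p = 0.175). syp-1, a component of the synaptonemal complex that overlaps another gene on the same strand, changed by 0.29 (adjusted p = 0.141). The tagged genes car-1 (297, 328 and 211 CPM against 253, 224 and 226 CPM) and pgl-1 (173, 208 and 148 CPM against 170, 147 and 157 CPM) overlapped between the groups, with changes of 0.25 and 0.16.

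By the rule for named genes, 8 abundant genes were higher in oocytes, by a size that depended on the scaling. With library totals each of the 8 had a larger log2 change, for example 1.23 for aly-2, 1.14 for meg-1 and 1.11 for ify-1. Under the TMM scaling, used for the values that follow, each rose by less than 1.5-fold relative to the typical gene. The largest rise was of aly-2, which encodes a member of the Aly/REF family of mRNA export adaptors (IV:9147468-9148579), with 69.5, 66.1 and 49.5 CPM against 39.5, 43.9 and 42.5 CPM (0.55 ± 0.16, adjusted p = 0.0377). meg-1, a germ granule gene (X:13927036-13929634), followed with 53.9, 52.6 and 52.3 CPM against 41.7, 36.1 and 37.7 CPM, tight within each group and clearly apart (0.46 ± 0.09, adjusted p = 0.00538). ify-1, the securin that holds back separase (II:5054084-5055338), rose by 0.44, acs-4, an acyl-CoA synthetase gene, by 0.34, cyb-1, a B-type cyclin, by 0.33, and spat-3, a RING finger gene first found through polarity mutants, by 0.31, with gkow-1 at 0.37 and tcc-1 at 0.36. Leaving out 1 library ended the call of 4, 5 and 1 of these 8 genes for oocyte libraries 1, 2 and 3, and of 7 for each whole-animal library, with the adjusted p reaching 0.148 at most; meg-1 kept its call each time. In the germline lists, the called genes were meg-1 and its relatives meg-3 (0.44 ± 0.10, adjusted p = 0.0113) and meg-4 (0.49 ± 0.12, adjusted p = 0.0171), whose products organise germ granules, the cell cycle genes cyb-1, ify-1 and cdc-25.2 (0.44), the polarity gene mes-1 (0.42), the nuclear RNAi Argonaute gene nrde-3 (0.37) and the chromatin gene lin-15B (0.63). lin-15B overlaps a gene on the same strand and is uncertain. meg-3 lost its call without whole-animal library 2 (adjusted p = 0.0608) and meg-4 without whole-animal library 2 or 3 (0.0745 to 0.0794), while cdc-25.2, mes-1 and nrde-3 each lost it for 4 or 5 of the 6 libraries (up to 0.165).

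Of the 6 genes called at least 4-fold higher, the 2 with the highest mean CPM in oocytes lay outside that rule and are named after their values were seen. C48D1.5, a protein-coding gene on chromosome IV at low level, had 4.02, 4.33 and 6.37 CPM in oocytes and 0.904, 0.445 and 0.483 CPM in whole animals, an 8.10-fold difference with no overlap (3.02 ± 0.33, adjusted p = 0.000116). 21ur-3672, annotated as a piRNA, had 36, 23 and 44 counts in oocytes and 0 in each whole-animal library, at least 24.8-fold on a floor of 3 counts over the whole-animal group. The library kit was made for total RNA rather than for small RNA, so these counts cannot be read as a level of the mature piRNA.

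Many of the gene families compared by a germline and a soma side, though not all, differed between the sides. In 17 such families, with sides taken from general knowledge of the genes, 27 tested germline-side genes had 0 lower and 1 higher member and a median of 0.17. The 24 tested soma-side genes had 16 lower and 0 higher and a median of -1.71. Several of the lower ones were already counted above, such as unc-54, myo-3, mlc-1 and act-4 among muscle markers and act-5 and vha-6 among intestine markers. This count therefore partly repeats those lists. The myosin heavy chain family sets a cytoplasmic gene against muscle genes. At least 1 soma-side member was lower in 11 families. In 4 families, Notch receptors, Y-box proteins, eIF4E and innexins, 0 soma-side members were called by edgeR, with changes from -0.03 to 0.48, and in 2, cytochrome c and beta tubulin, no soma-side member was tested. For the translation factor eIF5A, iff-1, the germline copy, had 119.4, 208 and 144 TPM (a level that is also divided by transcript length) in oocytes and 117.5, 91.5 and 98.4 TPM in whole animals. The somatic copy iff-2 had 6.62, 3.79 and 5.78 TPM against 12.8, 13.3 and 12.8 TPM. On the CPM scale the first changed by 0.03 ± 0.12 and the second by -1.81 ± 0.31 (adjusted p = 0.00255), and in both groups iff-1 was the more abundant by far. The ATP synthase subunit genes asb-1 and asb-2 were apart in oocytes, at 48.2, 53.9 and 36.2 TPM against 15.1, 20.6 and 16.23 TPM, and close in whole animals, at 28.55, 23.9 and 24.8 TPM against 25.4, 17.8 and 18.96 TPM. Only asb-2 was called of these, at -0.87 ± 0.13 (adjusted p = 0.00113), and it lost the call with library totals, at -0.19.

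Enzymes of glycolysis also differed by copy. The glyceraldehyde 3-phosphate dehydrogenase genes gpd-2 and gpd-3 fell by 1.70 and 1.73 (adjusted p = 0.000143 and 0.000658), gpd-4 rose by 0.45 ± 0.13 (adjusted p = 0.0334) and gpd-1 changed by 0.29 (adjusted p = 0.109). gpd-1 with gpd-4, and gpd-2 with gpd-3, are near-identical pairs whose counts may be shared, and gpd-2 also overlaps a gene on its strand. The call of gpd-4 was lost without oocyte library 2 or whole-animal library 2 or 3 (adjusted p from 0.077 to 0.143). pyk-2, a pyruvate kinase gene, fell by 2.53 (adjusted p = 0.0025). In the cytoskeleton, nmy-2, the nonmuscle myosin of the early embryo, held 451, 511 and 373 CPM against 373, 348 and 370 CPM and was not called (adjusted p = 0.155), although without oocyte library 3 it was. The actin gene act-2 had 90.5, 81.1 and 59.7 CPM against 61.6, 60.9 and 60.5 CPM, overlapping between the groups, while act-4 fell by 1.79 (adjusted p = 0.00965) and act-5, the actin of intestinal microvilli, fell by 2.68 (adjusted p = 0.00482). Actin genes are close copies, act-4 also overlaps a gene on the other strand, and both are uncertain as single genes. mlc-1, a muscle myosin light chain with an opposite-strand overlap, fell by 1.90 (adjusted p = 0.00342). The Notch receptor gene of the germline, glp-1, which overlaps a gene on the other strand, was at 136, 155 and 132 CPM against 126, 122.3 and 127 CPM, barely apart, and was not called (0.17 ± 0.10, adjusted p = 0.335).

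**Figure D4:**
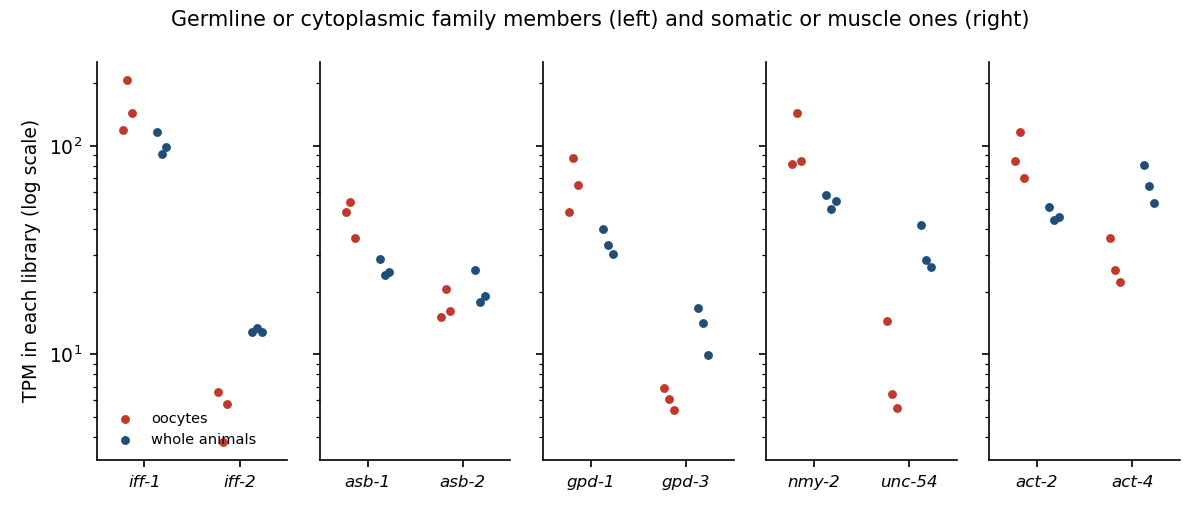
TPM in each library (log scale) for 5 pairs of related genes, with the member tied to the germline, the early embryo or the cytoplasm on the left and the one tied to soma or muscle on the right; red points are oocyte libraries and blue points whole-animal libraries. In each pair the left gene is at or above its whole-animal level in oocytes and the right gene is lower there in at least 2 of 3 libraries; TPM includes ribosomal RNA genes, whose share differed between the groups.

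Under the TMM scaling the basal machinery otherwise gave few calls, and these lay often on the X chromosome. Across 10 lists, namely translation factors, ribosomal proteins, nuclear genes of the respiratory chain, proteasome, glycolysis, vacuolar ATPase, aminoacyl-tRNA synthetases, nuclear pore, splicing factors and chaperones, 20 of 339 tested genes were lower (5.90%) and 3 higher (0.885%). Over all genes 12.5% were lower and 0.709% higher. Of the 21 tested members of these lists on the X chromosome 10 were lower (47.6%), against 10 of 318 on autosomes (3.14%). Vacuolar ATPase subunits made up 7 of the 10 lower autosomal ones. With library totals 58 of 81 ribosomal protein genes were higher and 2 lower. The same scaling gave 27 higher and 3 lower of 33 translation factors, and 32 higher and 0 lower of 33 proteasome genes. In edgeR's test under TMM, 14 ribosomal protein genes were lower and 0 higher at an unadjusted p under 0.05. For the proteasome 10 were higher and 0 lower. Among 81 ribosomal protein genes the 2 lower ones were rpl-11.2 (X:2241738-2242618), with 8.90, 6.92 and 7.84 CPM against 34.4, 26.9 and 23.6 CPM (-1.84 ± 0.16, adjusted p = 2.09e-05), and rpl-25.1, which was 4.60-fold lower (adjusted p = 0.00215). Both are X-linked second copies of a ribosomal protein gene. Without oocyte library 1 the count of lower ribosomal protein genes was 6. The elongation factor gene eef-1A.2 (X:7823652-7825769) had 30.9, 19.5 and 22.4 CPM in oocytes and 99.0, 71.4 and 69.8 CPM in whole animals (-1.72 ± 0.21, adjusted p = 0.000554). Its autosomal counterpart eef-1A.1, named after its values were seen and overlapping a gene on the other strand, had 2180, 1745 and 1267 CPM against 1980, 1464 and 1461 CPM, wholly overlapping (0.08 ± 0.21). pab-2, an X-linked poly(A)-binding protein gene, fell by 1.86 (adjusted p = 0.00349). Of 21 vacuolar ATPase genes 8 were lower (median -0.37), among them vha-6 and vha-5 (-3.10, uncertain for an overlap). With library totals 2 were lower and 9 higher, and without whole-animal libraries 2 and 3 there were 4 and 3 lower.

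Over the whole genome, X-linked genes were lower in oocytes more often than autosomal ones. Of 1199 tested protein-coding genes on X 303 were called lower (25.27%), against 951 of 8411 on the autosomes (11.3%), and the median change was -0.39 on X and 0.02 on the autosomes. The share on X exceeded that on the autosomes under each of the alternative scalings, filters, tests and left-out libraries as well, and came closest with no filter, at 15.1% against 8.75%. Without whole-animal library 1 the shares were 15.7% and 7.65%, and without whole-animal library 2 they were 15.7% and 7.47%. Among the autosomes the share of lower genes ran from 7.16% on chromosome III and 7.26% on chromosome I through 10.8% on II and 13.9% on IV to 18.4% on V. X-linked genes took 4.02%, 3.06% and 3.82% of the protein-coding counts in oocytes and 10.8%, 10.7% and 9.81% in whole animals. No oocyte library came near a whole-animal library, and the difference was -6.78 percentage points (exact permutation, two-sided, p = 0.1, which is as small as 3 libraries in each group can give). Since 5 of the 6 vitellogenin genes are on X, the share was also taken without them: it was then 3.03%, 2.78% and 3.18% in oocytes and 4.46%, 4.56% and 4.28% in whole animals. The groups remained apart, with a difference of -1.44 points (exact permutation p = 0.1). Intestine and muscle markers fell in the same libraries, and the part of other somatic genes in the remaining difference was not tested.

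**Figure D5:**
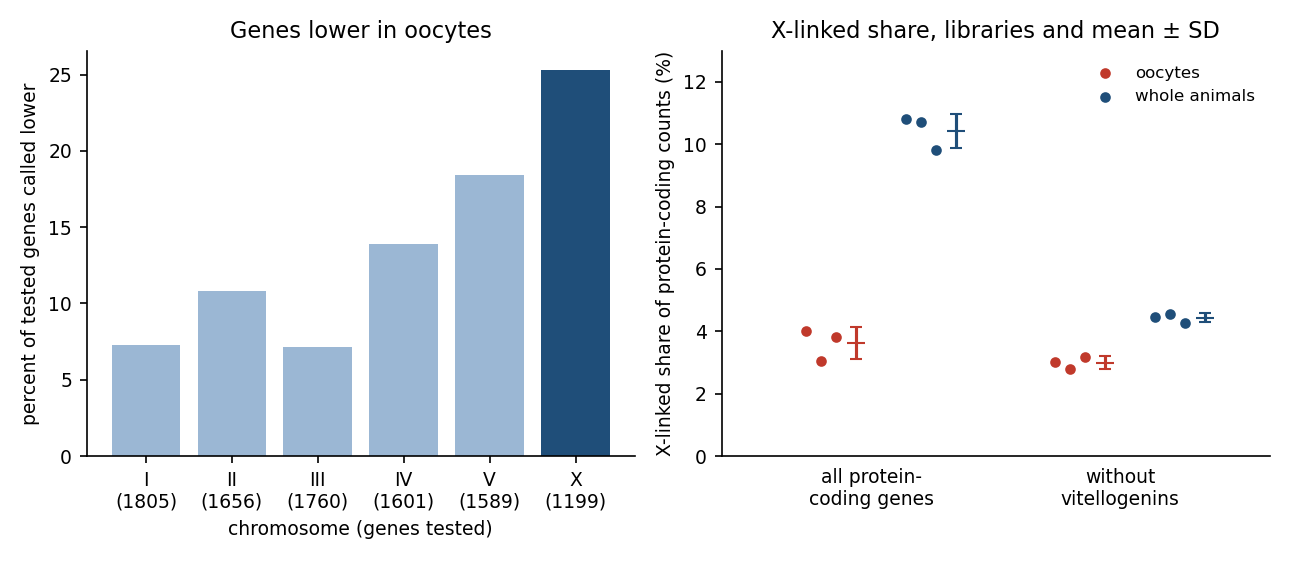
Left, percent of tested protein-coding genes called lower in oocytes on each chromosome, with the number tested in brackets. Right, X-linked share of protein-coding counts in each library, with the mean and SD of 3 libraries beside the points, over all protein-coding genes and without the vitellogenins; the X bar is the highest at 25.27%, and oocytes lie below whole animals in both measures.

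The level of X-linked genes was low in both groups. The median tested gene on X stood at 0.933, 1.11 and 1.06 TPM in the oocyte libraries and at 1.29, 1.28 and 1.17 TPM in the whole-animal libraries, so the groups were just separated. Autosomal genes had medians of 5.20, 7.40 and 6.85 TPM in oocytes and 4.63, 4.62 and 4.58 TPM in whole animals. At 10 TPM or more stood 78 of 2670 annotated X-linked genes in oocytes (2.92%) and 3441 of 17043 autosomal ones (20.2%), and in whole animals 78 (2.92%) and 2354 (13.8%), so the X-linked count was the same in both groups. A few germline genes on X were higher under the TMM scaling: of 11 tested X-linked members of the germline lists 6 were called higher (54.5%), namely meg-1, meg-3, meg-4, mes-1, nrde-3 and lin-15B, against 3 of 278 autosomal members (1.08%). This contrast depended on the scaling and on single libraries: with library totals 11 of 11 and 273 of 278 were higher, without whole-animal libraries 2 and 3 the X-linked count was 2 and 3 and the autosomal count 0, and without oocyte library 3 the counts were 4 and 12. Over all genes 20 X-linked genes were higher (1.67%) and 48 autosomal ones (0.571%), but this order depended on the scaling: with library totals 31.5% of X-linked and 57.6% of autosomal genes were higher, and without oocyte library 3 the shares were 1.45% and 2.36%. The shares fell to 0.472% and 0.16% without whole-animal library 2, with the order kept.

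The most abundant transcripts of the oocyte, ranked by TPM and named for that rank after the values were seen, were shared with the whole animal. sip-1, a small heat shock protein gene of oocytes and embryos, had the highest mean in oocytes, 1690 TPM, with 1170, 2380 and 1520 TPM, and 1020, 755 and 794 TPM in whole animals. eef-1A.1 was close behind at a mean of 1675 TPM and stood above sip-1 in oocyte library 1, at 1700 TPM. The chondroitin proteoglycan genes of the eggshell cpg-1 and cpg-2 had mean levels of 864 and 679 TPM in oocytes and 427 and 339 TPM in whole animals. On the CPM scale sip-1, cpg-1 and cpg-2 changed by 0.32, 0.36 and 0.35, and none was called (adjusted p = 0.162, 0.118 and 0.0929). In whole animals vit-6, vit-5 and vit-2 followed eef-1A.1 in that ranking, at means of 990, 987 and 926 TPM. far-2, also named after its values were seen, a secreted fatty acid and retinol binding protein gene, fell from a mean of 322 TPM to 128 TPM, with 81.2, 27.1 and 63.4 CPM against 226, 217 and 180 CPM (-1.86 ± 0.35, adjusted p = 0.0117).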

How the data were processed

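The authors deposited raw counts per gene, with 1 column for each library, and a second table with TPM, FPKM and coverage per gene; the deposited TPM columns include ribosomal RNA genes, and the deposited FPKM and coverage values entered no test. Reads were aligned with HISAT2 2.1.0 to WBcel235, per the submitters' processing notes, which also name StringTie, HTSeq, bcl2fastq, FastQC and DESeq2 without role or version. The libraries came from a stranded total RNA kit, per the labels' protocols, but the strand setting of the counting is not given in the sources used here, so genes that overlap another gene are called uncertain. Each of the 46778 identifiers was looked up in the Ensembl annotation of WBcel235, which held 46603 of them, and 0 value columns stayed unmapped. No sequence is printed.

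Samples were grouped by their labels. Differences were tested in R 4.3.3 with edgeR 4.0.16, by its quasi-likelihood test with TMM factors, robust estimation, edgeR's filter by group (minimum count 10, minimum total 15), all 9 libraries in 1 filter, scaling and fit, 6 residual degrees of freedom and no covariate. Adjusted p-values are Benjamini-Hochberg over all 10162 genes tested. CPM values were computed from the deposited counts over library sizes scaled by TMM. The script was tested on simulated data with known changes. Alternatives were other scalings, filters, the 6 libraries alone, a replicate block, leaving out each library, DESeq2 1.42.0, and limma 3.58.1 on log2(TPM + 1) and log2(TPM + 0.1). Total counts of 27946955 to 75081411 limit what can be seen of scarce genes; for a gene at 0 a bound rests on a floor of 3 counts over the group, which covers counting error only.

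Members, gene lists and tests were chosen with earlier results of these data known, so a list's count is a description. Named genes are, in each direction, up to 10 called genes by size of change that code for protein, carry a class symbol, reach a mean of 50 CPM in either group and do not overlap between libraries, outside the msp, his, rpl and rps families; up to 3 called members of each list and direction; members of the paralog families; and preset markers. The text names a selection of these, and genes outside the rule are marked.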

Additional observations from a re-analysis of the deposited data

How the results depend on the processing

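Other scalings moved mainly the higher genes. Filters, the 6 libraries alone and left-out whole-animal libraries moved more lower genes than higher ones in number, but fewer in proportion. For example, without whole-animal library 2 the higher count went from 72 to 23 and the lower count from 1272 to 865. Against 1344 called, 72 of them higher and 1272 lower, the called and higher counts were 6481 and 5278 with library totals alone, and 5606 and 4202 with log2(TPM + 1), 5706 and 4315 with log2(TPM + 0.1), 4275 and 2835 for log2(TPM + 1) with no filter, and 2052 and 301 with DESeq2. With log2(TPM + 1) and a mean TPM of at least 1 there were 4914 called, 4298 higher and 616 lower, and under the stricter filter (50 counts in 3 libraries) 757, 34 and 723. Higher genes numbered 153 with DESeq2's size factors, 642 with protein-coding totals, 320 with no filter and 47 in the 6 libraries alone. Leaving out 1 library gave 888 to 1535 called, 23 to 227 higher and 865 to 1436 lower. Of the 1272 lower genes 1272 were tested with library totals and 1243 of them stayed negative. In these data the oocyte and whole-animal libraries shared only a number: same-numbered libraries correlated at 0.015, -0.14 and 0.13 in their deviations, and with the replicate block 68 genes were higher and 1153 lower. The X-linked share kept its sign under every alternative, with differences from -1.44 to -7.08 points; leaving out 1 library gave -6.5 to -7.08. Values of uncalled genes changed sign for lim-7 (0.419 with library totals, 0.052 with log2(TPM + 1) with or without a filter, and 0.18 without oocyte library 1, with left-out libraries giving -0.647 to 0.18), iff-1 (-0.007 under the stricter filter, -0.039 without oocyte library 2, -0.019 without whole-animal library 2, left-out range -0.039 to 0.105) and eef-1A.1 (-0.113 without oocyte library 1, left-out range -0.113 to 0.264). Of 68 called genes named here 0 changed sign and 19 lost the call somewhere. The causes were not tested. Depth limits scarce genes: the floor of 3 counts over the oocyte group is 0.0319 CPM.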

Other observations

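Regulatory families scarcely described above gave few calls. Of 106 tested nuclear hormone receptor genes 6 were lower and 0 higher (5.66%, against 12.5% lower over all genes), with a median of -0.60. Of 25 tested homeobox genes 1 was lower and 1 higher, with a median of 0.38. Of 108 tested F-box and MATH domain genes 8 were lower and 1 higher, with a median of 0.05. On library totals 22, 17 and 36 genes of these lists were higher. Left-out libraries moved the counts of lower genes: for nuclear hormone receptors to 10 without oocyte library 3 and to 3 and 2 without whole-animal libraries 2 and 3, and for F-box and MATH domain genes to 4 without oocyte library 3 or whole-animal library 1 or 2 and to 2 without whole-animal library 3. Mitochondrially encoded mRNAs had a median of -0.36 with 0 of 12 called by edgeR or DESeq2 and 0 at an unadjusted p under 0.05, at 876, 645 and 1170 CPM in oocytes and 1000 to 1320 CPM in whole animals, with oocyte library 3 inside that range.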
